A study of Mus musculus with 8 samples.

Results

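The pancreatic lymph nodes of 3 knockout mice lacking Deaf1 (Deaf1-KO) were profiled at 30 weeks of age, each mouse on its own 2-colour Agilent microarray. These 3 arrays were chosen by their titles from the 8 arrays of the series, which also hold knockout nodes of 4 weeks (2 arrays) and 12 weeks (3 arrays). On every array Cy5 labelled the RNA of 1 knockout mouse, and Cy3 labelled RNA pooled from wild-type littermates of the same age. The pool held 3 mice at 12 and 30 weeks and 2 mice at 4 weeks. All mice had the BALB/c background and were untreated, and the labels do not say which part of Deaf1 was removed. The node is a bulk tissue, so fewer cells of a type and less RNA per cell cannot be told apart.

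Ratios are given as log2 of the knockout signal over that of the pool, so that −1 is a signal 2 times lower in the knockout, given for replicates 1, 2 and 3 or as the mean ± standard error of a limma fit with 3 arrays at 30 weeks. A gene rose or fell where the adjusted p of that fit was under 0.05. No array had its dyes swapped and none set a wild-type mouse against the pool. The effect of the dye and that of the genotype therefore cannot be told apart within a ratio, and the spread among wild-type mice is in no test. After normalisation within and between arrays, the wild-type channels of the 3 arrays correlated at 0.998 to 0.999 across genes. The pool was taken to be the same RNA on all 3. Knockout channels, of different mice, correlated at 0.976 to 0.995, so the correlation alone does not show this.

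Deaf1 encodes a transcription factor with a SAND domain that binds DNA motifs with the core TTCG. In lymph node stroma it is known as a regulator of peripheral tissue antigens, a role that Aire has in the thymus. Type I interferon signals through the receptor chains Ifnar1 and Ifnar2 and the kinase Tyk2 to a complex that holds Stat2 and Irf9. That complex binds response elements made of repeated GAAA in the promoters of antiviral genes, and Irf7 amplifies the response.

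Promoter sequences are shown for the interferon genes first, because their list held more falls than any other list examined. The 250 bases upstream of the start of each gene were taken from RefSeq (GRCm38.p6), and capitals mark every match to the motif searched, GAAA followed by NN and GAAA, or to its complement TTTC, NN and TTTC. Such a match lay upstream of 936 of the 27025 genes of the RefSeq promoter table (3.46%) and of 14 of the 36 interferon-response genes with an entry. Shown are the 4 holders of a match that fell most and then both holders that rose, each with up to 45 bases on either side of the matches.
Oas1a (chr5:120907526-120907590, minus strand): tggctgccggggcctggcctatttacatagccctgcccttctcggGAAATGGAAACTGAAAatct
Isg15 (chr4:156200830-156200941, minus strand): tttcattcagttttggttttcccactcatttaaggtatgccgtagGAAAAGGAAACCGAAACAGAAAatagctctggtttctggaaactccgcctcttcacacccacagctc
Ifit3 (chr19:34583328-34583461, plus strand): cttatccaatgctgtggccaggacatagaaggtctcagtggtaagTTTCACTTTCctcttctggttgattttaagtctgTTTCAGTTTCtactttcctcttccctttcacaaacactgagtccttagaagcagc
Bst2 (chr8:71537542-71537647, minus strand): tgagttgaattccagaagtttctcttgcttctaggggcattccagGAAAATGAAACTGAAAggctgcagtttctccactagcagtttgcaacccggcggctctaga
Stat2 (chr10:128270248-128270330, plus strand): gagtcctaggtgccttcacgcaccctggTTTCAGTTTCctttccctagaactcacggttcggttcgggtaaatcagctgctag
Cxcl10 (chr5:92349048-92349139, minus strand): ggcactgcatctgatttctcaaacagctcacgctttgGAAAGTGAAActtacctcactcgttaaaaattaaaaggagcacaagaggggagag

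Matches stood upstream of 8 of 21 interferon genes that fell, 2 of 2 that rose and 4 of 13 that did not pass the test. Across the 11764 tested genes with an entry the share was 3.25%. It was 4.01% of genes called lower, 3.37% of genes called higher and 2.95% of genes not called. Irf7, whose fall was the largest of the list, held no match in its window. In Isg15, Oas1a and Bst2 the matches overlapped in a run of 3 or more GAAA blocks close together, whereas Stat2 and Cxcl10 had a single match, 212 and 203 bases before the start. These are matches of letters and not measured binding. Whether the number of matches goes with the direction was not tested, as the other holders are not shown.

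A second sequence is shown for Eif4g3, the scaffold protein of the cap-binding complex of translation, which is named here beside Deaf1 and Aire. Its upstream bases held TTCG, written on this strand as CGAA, in pairs 6 to 11 bases apart. Capitals mark the matches that have such a partner.
Eif4g3 (chr4:137993260-137993454, plus strand): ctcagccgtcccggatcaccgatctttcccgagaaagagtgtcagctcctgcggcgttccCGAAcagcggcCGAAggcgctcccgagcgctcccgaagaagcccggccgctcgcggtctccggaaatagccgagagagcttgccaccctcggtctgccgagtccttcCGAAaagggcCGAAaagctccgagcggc

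Such a pair occurred upstream of 356 of the 27025 genes (1.32%) and of 251 of the 11764 tested genes with an entry (2.13%). The share was 2.79% of genes called lower, 2.34% of genes called higher and 1.85% of genes not called at 30 weeks. One of the 2 RefSeq entries for Deaf1 itself also held a pair.

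The 3 arrays had 60.9% to 62.4% of 41174 probes well above background in Cy3 and 58.7% to 68.6% in Cy5, with replicate 2 at the low end of the latter. No probe was saturated. A filter on dim probes left 18403 genes, each represented by its brightest probe. Ratios of replicates 1 and 3 correlated at 0.885 across genes, and those of replicate 2 at 0.377 and 0.359 with them. These values include the digestive-enzyme genes described further on, whose median ratio had the opposite sign on replicate 2. The correlations without those genes were not computed. Replicate 1 lay on the slide of the 12-week arrays, and replicates 2 and 3 lay on a slide of their own. The median net signal of 15 node genes, among them Cd79a and Cd3d, subunits of the B-cell and T-cell receptors, was 12.2 to 12.3 in the pool and 11.7 to 12.4 in the knockout on the log2 scale. Over all genes it was 7.98 to 8.10 and 7.94 to 8.69.

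Deaf1 was measured by 3 probes. The brightest, at chr7:141152927-141152986 (mm8), read 0.14, 0.0047 and 0.15, a mean of 0.097 ± 0.059 (limma adjusted p = 0.225) that did not pass the test. With the GC correction the same probe read 0.23 (limma adjusted p = 0.0218) and passed. The second, at chr7:141166259-141172439, read −0.74, 3.11 and −0.62, with replicate 2 apart from the others in the manner of the digestive-enzyme genes described further on. The third probe was not well above background in either channel of the 3 arrays. Since the deleted part is not known, the labels cannot be checked with them.

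Eif4g3 fell at 30 weeks on every array. Its probe at chr4:137478284-137478343 (mm8) read −1.37, −1.43 and −1.68, or −1.49 ± 0.073 (limma adjusted p = 0.000337). A second Eif4g3 probe, at chr4:137475547-137478087, read −1.68, −1.85 and −1.91. Both probes were far below 0 on all 3 arrays. The mean of the first was −1.35 at 12 weeks and −0.97 at 4 weeks.

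The largest fall of a named gene was that of Tmem80, whose probe lies 34.9 kb from that of Deaf1 on chromosome 7. It read −2.30, −1.65 and −2.26, or −2.07 ± 0.19 (limma adjusted p = 0.000738), against −2.14 at 12 weeks and −1.69 at 4 weeks. Irf7 lies on the other side of the Deaf1 probe at a distance of 36.8 kb. Within 500 kb of the Deaf1 probe 17 of 45 genes fell (37.8%) and 5 rose, against 22.0% falling over the rest of chromosome 7. The cause of this difference was not tested.

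Aire, the regulator of self-antigen expression, read 0.68, 0.30 and 0.16 and rose by 0.38 ± 0.10 (limma adjusted p = 0.0203). The arrays did not overlap 0, but replicate 1 was farthest from it, and without replicate 1 the mean was 0.23 (limma adjusted p = 0.135) and did not pass. Other regulators of its list passed the test as well. Lmo4, a LIM protein that binds Deaf1, rose by 0.79 ± 0.089 and Gmeb1, a SAND-domain protein, by 0.28 ± 0.069. Ski, another SAND-domain protein, was at −0.34 ± 0.087 and Prdm1, a repressor of lymphocyte genes, at −0.26 ± 0.070, both falls. For Ski both of its other probes had the opposite sign.

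Of 18403 genes, 7195 passed the test at 30 weeks (39.1%), 3811 higher in the knockout (20.7%) and 3384 lower (18.4%). The counts given below for each list are to be read against these shares. The sign was equal on all 3 arrays for 13018 genes, and for 7187 of those that passed. Most differences were small. The median size among genes that passed was 0.42, and 169 genes passed with a difference over 1, of which 54 rose and 115 fell. Without the 39 digestive-enzyme genes that were measured, the same 7195 of 18364 genes passed and 13016 had an equal sign, since none of the 39 passed.

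The share of genes that passed followed the base composition of the probes. Among genes whose probe had at most 36.7% GC, 37.3% rose and 7.36% fell. Among those with at least 46.7% GC, 7.54% rose and 28.2% fell. With a smooth correction for probe GC, 38% of genes passed (20.6% higher and 17.4% lower), and 5702 of the 7195 genes passed with the same sign. Other probes of the same genes gave a separate reading: 2592 of 4396 other probes of genes that passed had the sign of the main probe (59.0%), against 55.4% for genes that did not pass. The share was 65.6% for genes that fell and 54.6% for genes that rose, so the other probes of rises shared the sign no more often than those of genes that did not pass. For genes with a difference over 1 the share was 74 of 102 probes (72.5%).

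**Figure D1:**
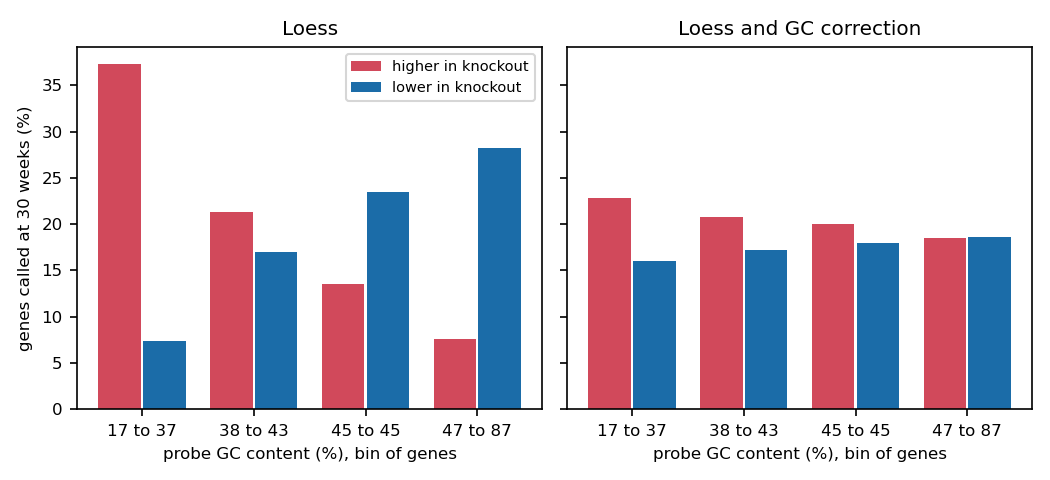
Share of genes called higher (red) or lower (blue) at 30 weeks, in percent of the genes of each bin of probe GC content, after loess normalisation (left) and after loess with a GC correction (right). Genes called higher fall from 37.3% to 7.54% with rising GC on the left and from 22.8% to 18.5% on the right.

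Scaling changed the balance of rises and falls. With each array centred on its median and no loess, 4538 genes were higher and 615 lower (88.1% higher, against 53.0% with loess), and the median of all genes stood at 0.15. That median rose with signal, from 0.014 in the dimmest bin of genes to 0.40 in the brightest, where loess gave 0.029 and 0.011. Group counts under this centring are therefore given beside the main groups below, together with those after the GC correction. Counts under median centring are to be read against the 4538 higher and 615 lower of 18403 genes, since a list can turn together with all genes.

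The largest rises were in genes of several functions. Rab6b, a small GTPase of Golgi transport, read 2.09, 1.19 and 2.70, or 1.99 ± 0.25 (limma adjusted p = 0.00124). Chka, choline kinase of phospholipid synthesis, rose by 1.40 ± 0.12, with the 3 arrays between 1.32 and 1.56. Setd1b, a histone H3 lysine methyltransferase, rose by 1.19 ± 0.13, and its other probe gave 1.10. Smad7, the inhibitor of TGF-beta receptors, read 1.35, 1.10 and 1.10, or 1.18 ± 0.15.

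Slc6a6, the taurine transporter, rose by 1.17 ± 0.095, although its other probe gave −0.48. Cbll1, a ubiquitin ligase, rose by 1.18 ± 0.16, Cab39, a partner of the kinase Stk11, by 1.17 ± 0.11, and Rif1, a protein of DNA double-strand break repair, by 1.12 ± 0.12. Further rises were Gdpd3 at 1.17 ± 0.19, the intermediate filament protein Synm at 1.17 ± 0.16, Pakap at 1.14 ± 0.22 and Plppr4 at 1.12 ± 0.12. For Synm and Pakap, none of the other probes (1 and 2) had the same sign. Of the 2 other Cab39 probes 1 had the same sign, and their mean was −0.31.

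A few of the rises were uneven between arrays. Rn18s, the 18S ribosomal RNA, read 1.24, 2.34 and 1.23, and Lars2, the mitochondrial leucyl-tRNA synthetase, read 1.25, 2.04 and 1.38. In both, replicate 2 was highest. Klf15, a transcription factor induced by glucocorticoids, read 0.25, 2.34 and 0.82, so its mean of 1.14 ± 0.32 rests mainly on replicate 2 and was 0.53 (limma adjusted p = 0.0431) without it.

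The largest falls included splicing factors, a matrix gene and antibody light-chain segments. Srsf5, an SR splicing factor, read −1.77, −2.07 and −2.06, or −1.97 ± 0.34 (limma adjusted p = 0.00317). Hnrnpc, which binds uridine tracts in pre-mRNA, read −1.56, −1.92 and −1.74, or −1.74 ± 0.14, and its other probe gave −0.62. Dpt, a dermal matrix protein, read −1.97, −1.65 and −1.88, or −1.83 ± 0.21 (limma adjusted p = 0.00101). Ypel5 was at −1.55 ± 0.12 while its other probe gave 0.094, and D6Ertd456e was at −1.44 ± 0.097.

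Tsc22d3, the glucocorticoid-induced leucine zipper protein, read −1.74, −1.13 and −1.83, or −1.57 ± 0.30, with both of its other probes lower as well. Saa3, an acute-phase serum amyloid protein, read −1.24, −2.23 and −2.10, or −1.85 ± 0.17 (limma adjusted p = 0.000729). Of the kappa light-chain variable segments, Igk-V1 read −1.78, −1.76 and −1.01 and Igkv1-135 read −1.85, −2.02 and −0.57. In both, replicate 3 was less far from 0 than the others. Segments of this family are near-identical copies, and which of them a probe measured is uncertain.

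**Figure D2:**
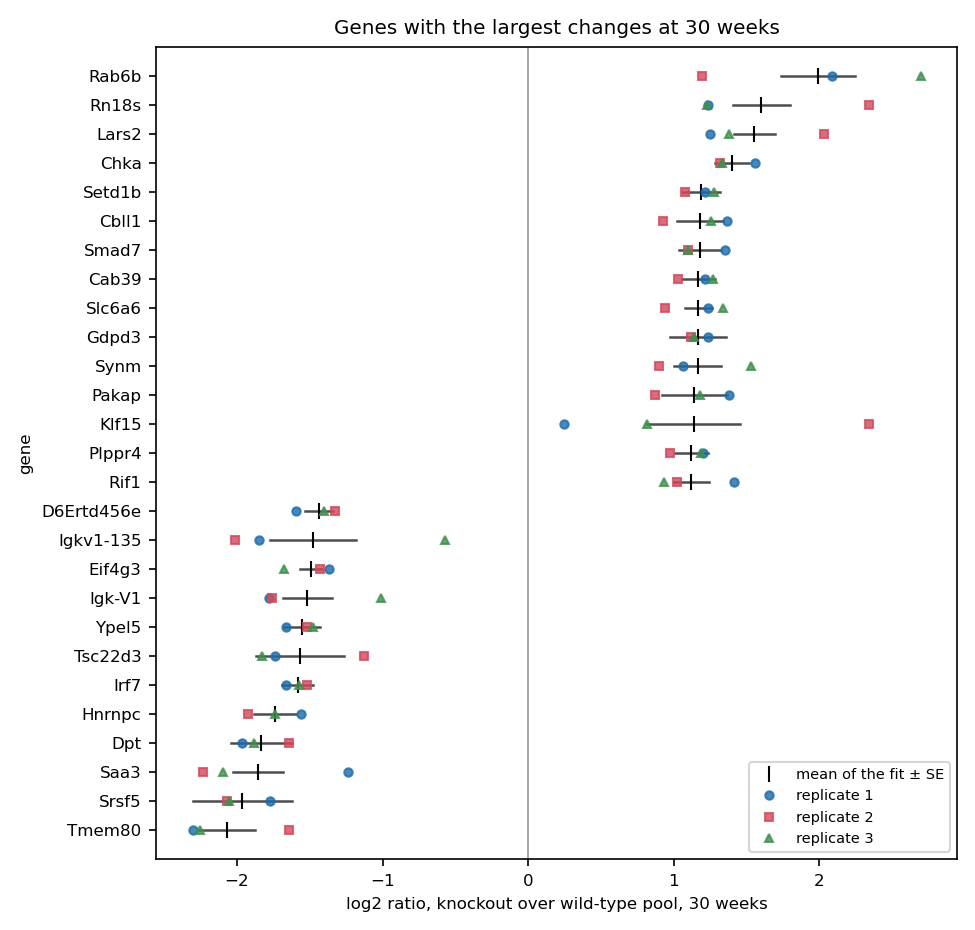
Log2 ratio of knockout over wild-type pool at 30 weeks (x axis) for genes with the largest rises and falls (y axis). Coloured points are the 3 arrays, and the black tick with its grey bar is the mean of the fit ± standard error. All points of a gene lie on 1 side of 0, and Klf15, Rab6b and Igkv1-135 show the widest spreads.

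Interferon-response genes formed a group that fell. Of 48 measured, 28 fell and 3 rose, with a median of −0.40 against 0.028 over all genes, and array medians of −0.37, −0.35 and −0.42. The ratio was below 0 on all 3 arrays for 34 of the 48 genes and above 0 for 9. The counts were 3 higher and 26 lower with the GC correction. Under median centring they were 8 higher and 9 lower, with a median of −0.11 against 0.15 over all genes. Of the other probes of these genes, 17 of 24 had the sign of the main one.

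The sensing and receptor end of the pathway was mixed. Ifnar1 and Ifnar2, the receptor chains of type I interferon, rose by 0.53 ± 0.070 and 0.40 ± 0.070, and Cgas, the cytosolic DNA sensor, by 0.49 ± 0.095. Tyk2, the kinase bound to Ifnar1, fell, with ratios of −0.96, −1.15 and −1.02, or −1.04 ± 0.12 (limma adjusted p = 0.00108). Falls were also called for the kinase Tbk1 at −0.44 ± 0.073, for Irf3, the factor it activates, at −0.43 ± 0.082, and for Irak4, a kinase of Toll-like receptor signalling, at −0.31 ± 0.073. In all, 4 rose and 6 fell of 27 measured (5 higher and 7 lower with the GC correction, 10 higher and 1 lower under median centring). Irf3 turned to a higher value under that centring, and its other probe was above 0.

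The transcription factors of the pathway differed from each other. Irf7 read −1.66, −1.52 and −1.57, or −1.58 ± 0.10 (limma adjusted p = 0.000633), with close agreement of the 3 arrays. Irf9 read 0.066, −0.057 and −0.022 and did not pass the test. Stat2 read 0.41, 0.12 and 0.41 and rose by 0.31 ± 0.086 (limma adjusted p = 0.0199).

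Among the antiviral effectors, Oas1a, which makes the activator of RNase L, read −0.95, −0.93 and −1.08, or −0.99 ± 0.13 (limma adjusted p = 0.0013). Isg15, a ubiquitin-like modifier, read −0.67, −0.65 and −0.68 or −0.66 ± 0.11 (limma adjusted p = 0.00271), nearly the same value on each array. Ifit3, which acts with other IFIT proteins on foreign RNA, read −1.06, −0.93 and −0.86, or −0.95 ± 0.26 (limma adjusted p = 0.0209). Bst2, which tethers budding virus particles, read −0.59, −1.20 and −1.26, with replicate 1 nearer to 0 than the others. These 4 genes were chosen as the holders of a match that fell most, so their direction was set by that choice. Each has at least 2 matches in the windows shown, against 1 in Stat2 and in Cxcl10. The other holders are not shown, and match number against direction was not tested.

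Further falls of the group were Isg20, an exonuclease, at −0.82 ± 0.11, Ifi27 at −0.91 ± 0.12 and Phf11d at −1.11 ± 0.17. Cxcl10, a chemokine that draws T cells, went the other way. It read 0.57, 0.55 and 1.07 and rose by 0.73 ± 0.19 (limma adjusted p = 0.0163), and its means at 12 and 4 weeks were 1.03 and 1.01. Without replicate 1 of 30 weeks the count of interferon genes lower was 18, without replicate 2 it was 22 and without replicate 3 it was 17.

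**Figure D3:**
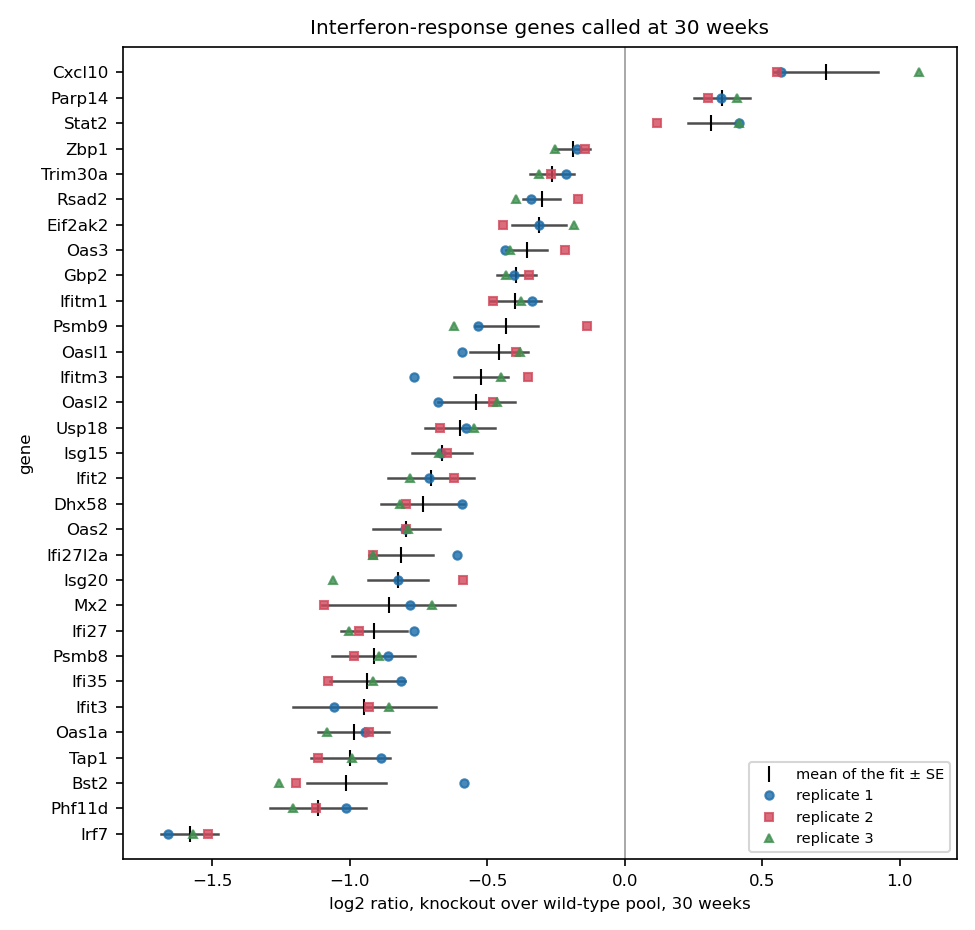
Log2 ratio of knockout over wild-type pool at 30 weeks (x axis) for the interferon-response genes that passed the test, 28 falls and 3 rises (y axis), sorted by mean. Coloured points are the 3 arrays and the black tick with its grey bar is the mean of the fit ± standard error. Irf7 stands at the low end, with points at −1.66, −1.52 and −1.57, and Cxcl10 at the high end, with points at 0.57, 0.55 and 1.07.

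Genes of class I antigen presentation, which shows peptides from inside the cell to CD8 T cells, mostly fell. The transporter subunits Tap1 and Tap2, which pump peptides into the endoplasmic reticulum, read −0.89, −1.12 and −0.99 and −0.81, −1.02 and −1.28, or −0.999 ± 0.14 and −1.04 ± 0.13. Psmb8, an immunoproteasome subunit, was at −0.91 ± 0.15, the chaperone Calr at −0.77 ± 0.072 and the peptide-loading protein Pdia3 at −0.41 ± 0.066. Tap1 and Psmb8 are also in the interferon-response list and count among its falls, so the lists are not separate. Rises were called for Erap1, which trims peptides, at 0.50 ± 0.070, for the class I chain H2-K1 at 0.31 ± 0.089 and for the non-classical chain H2-M3 at 0.70 ± 0.072, although the other H2-M3 probe gave −0.68. For H2-K1 the mean over its probes was below 0, and the rise did not pass with the GC correction, at 0.16 (limma adjusted p = 0.11). Of 17 measured genes 4 rose and 10 fell, with a median of −0.41 and array medians of −0.36, −0.36 and −0.39. The counts were 3 higher and 7 lower with the GC correction, and the direction of the list turned under median centring, with 6 higher and 2 lower. Class I chains are close copies of each other, and their probes may share signal.

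Class II genes, which present peptides to CD4 T cells, also fell more often than they rose. H2-DMb2, a chain of the peptide exchanger, read −0.98, −1.001 and −0.93, or −0.97 ± 0.14 (limma adjusted p = 0.00182). The chains H2-Aa and H2-Eb1 were at −0.72 ± 0.16 and −0.53 ± 0.11, and the costimulator Cd86 was at −0.39 ± 0.083. H2-Ob, a chain of the exchanger's inhibitor, read −0.37, −1.78 and −1.72, with replicate 1 nearer to 0. Ctss, the protease that cuts the invariant chain, rose by 0.58 ± 0.067 and Rfxap, a class II transcription factor, by 0.30 ± 0.091. Of 20 measured genes 2 rose and 10 fell (median −0.31, 3 higher and 7 lower with the GC correction). Of 10 other probes, 9 had the sign of the main one, but under median centring the counts turned to 3 higher and 1 lower, and H2-Eb1 turned with them.

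B-cell genes fell more often than they rose. The inhibitory receptor Cd72 read −0.78, −1.12 and −0.73, or −0.88 ± 0.15 (limma adjusted p = 0.0032). Falls were also called for the kinase Btk at −0.71 ± 0.11, the factor Spib at −0.48 ± 0.073 and Cd79a at −0.54 ± 0.10. Ms4a1, which encodes CD20, read 0.89, 0.18 and 0.57 and rose by 0.55 ± 0.14, and Blnk, an adaptor of the receptor, by 0.44 ± 0.14. Of 24 measured genes 2 rose and 11 fell (median −0.29, array medians −0.23, −0.44 and −0.14, 1 higher and 9 lower with the GC correction), and under median centring none fell and 4 rose. Of the other probes, 5 of 11 had the sign of the main one.

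The plasma cell list had 5 falls and no rise among 20 genes. They included Mzb1, a chaperone of antibody secretion, at −0.78 ± 0.12, Sdf2l1 at −0.69 ± 0.12, Xbp1, the factor of the secretory response, at −0.39 ± 0.083 and Pdia4 at −0.37 ± 0.079. Under median centring 4 genes of this list rose and none fell. In the germinal centre and follicular helper list, 2 rose and 3 fell of 15 measured, against 4 higher and 0 lower under median centring. The inhibitory receptor Pdcd1 was at −0.61 ± 0.10, the homing receptor Cxcr5 at −0.48 ± 0.13 and Basp1 at −0.50 ± 0.13, while the adaptor Sh2d1a rose by 0.66 ± 0.083 and the death receptor Fas by 0.23 ± 0.080.

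T-cell genes showed 9 falls and 1 rise among 30. Cd2, an adhesion receptor, was at −0.76 ± 0.13, the kinase Zap70 at −0.54 ± 0.092, the factor Lef1 at −0.50 ± 0.10 and Il7r, the receptor of a survival cytokine, at −0.38 ± 0.083. Cd3d was at −0.45 ± 0.11 and turned above 0 under median centring, where 4 genes of the list rose and none fell. Themis, a regulator of T-cell receptor signalling, rose by 0.53 ± 0.092. The list had 1 higher and 9 lower with the GC correction.

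In the regulatory T-cell list 1 rose and 5 fell of 12 measured (1 higher and 4 lower with the GC correction and 2 higher and 1 lower under median centring). The receptors Tnfrsf18 and Ctla4 were at −0.77 ± 0.16 and −0.60 ± 0.099, Foxp3, the defining factor of these cells, read −0.35, −0.25 and −0.33, or −0.31 ± 0.079, and Izumo1r was at −0.40 ± 0.097. Gpr83, a receptor of these cells, rose by 0.78 ± 0.070. Among cytotoxic and natural killer genes 1 rose and 3 fell of 20 measured: Ncr1, Nkg7 and Klrg1 were at −0.58 ± 0.096, −0.40 ± 0.12 and −0.22 ± 0.068, and the factor Tbx21 rose by 0.36 ± 0.11. Against 20.7% rising and 18.4% falling among all genes, both shares of the cytotoxic list were lower. The balance of that list turned in the other fits (2 higher and 1 lower with the GC correction and 2 higher and 1 lower under median centring).

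Il2rg, the chain shared by a family of interleukin receptors, read −1.02, −1.18 and −1.23, or −1.14 ± 0.14 (limma adjusted p = 0.00114). Il6st, the signalling chain gp130 of the interleukin-6 family, read −1.03, −1.12 and −1.05, or −1.07 ± 0.11 (limma adjusted p = 0.000866). Il17ra read −1.08, −0.91 and −0.999, and its other probe gave −0.82. Il10ra was at −0.81 ± 0.11. In each of these the 3 arrays lay close together. In the list of cytokines and TNF family members, which holds these receptors, 6 rose and 12 fell of 54 measured, near the 18.4% falling among all genes, with 5 higher and 11 lower after the GC correction, 9 higher and 4 lower under median centring, and 15 of 18 other probes of equal sign. Il33, an alarmin of stromal cells, rose by 0.50 ± 0.11 and the receptor Il18r1 by 0.39 ± 0.079.

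Among chemokines and their receptors 8 rose and 3 fell of 45 measured, both shares below the 20.7% rising and 18.4% falling among all genes. The counts were 9 higher and 4 lower after the GC correction and 12 higher and 0 lower under median centring. Besides Cxcl10, the rises included Ccl17, made by dendritic cells, at 0.34 ± 0.086, the monocyte receptors Ccr2 at 0.49 ± 0.10 and Cx3cr1 at 0.51 ± 0.11, and Xcr1, the receptor of cross-presenting dendritic cells, at 0.52 ± 0.11. Ccr7, which guides lymphocytes and dendritic cells into the node, read −0.49, −0.60 and −0.78, or −0.63 ± 0.14 (limma adjusted p = 0.00981). Other probes of Cx3cr1 and Xcr1 read −0.097 and −0.067.

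In the macrophage and monocyte list 3 rose and 8 fell of 26 measured, with 3 higher and 8 lower after the GC correction and 5 higher and 0 lower under median centring. The complement subunits C1qa and C1qb were at −0.40 ± 0.069 and −0.65 ± 0.086, the lysosomal protein Cd68 at −0.54 ± 0.068 and the antibody receptor Fcgr3 at −0.38 ± 0.063. C1qa turned above 0 under median centring. Lysozyme, Lyz2, rose by 0.59 ± 0.12 but its other probe gave −0.69, and the mean of both probes was below 0.

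Dendritic cell genes had 3 rises and 4 falls among 21, shares near or below the 20.7% and 18.4% of all genes, and 4 higher and 0 lower under median centring. The falls included Sirpa at −0.50 ± 0.061 and Flt3, a growth factor receptor, at −0.48 ± 0.13. Granulocyte and mast cell genes had 3 falls and no rise among 19: Prg2, an eosinophil granule protein, read −1.12, −0.77 and −0.88, the mast cell chymase Cma1 read −0.54, −0.999 and −0.98, and the tryptase Tpsb2 was at −0.29 ± 0.062, or −0.16 (limma adjusted p = 0.0808) with the GC correction. That list had 2 higher and 2 lower with the GC correction and 0 higher and 3 lower under median centring. Its rising and falling shares in the main fit were below the 20.7% and 18.4% of all genes. Among acute-phase and antiprotease genes 2 rose and 4 fell of 23 measured (3 higher and 4 lower with the GC correction and 4 higher and 2 lower under median centring). Both shares were below the 20.7% and 18.4% of all genes. Beside Saa3, Saa1 was at −0.65 ± 0.092 and the complement proteins C4b and Cfb at −0.94 ± 0.12 and −0.73 ± 0.080. Wfdc17, a myeloid protease inhibitor, read 1.10, 0.43 and 0.94 and rose by 0.82 ± 0.16.

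Vessel genes fell more often than they rose. In the list of blood and high endothelial vessels 1 rose and 10 fell of 22 measured (median −0.35, array medians −0.24, −0.37 and −0.24). The receptor tyrosine kinases Tie1 and Tek read −0.74, −0.63 and −0.64 and −0.56, −0.55 and −0.58, and Eng, a coreceptor of TGF-beta on endothelium, read −0.76, −0.60 and −0.64. The fenestral protein Plvap was at −0.51 ± 0.063, the junction protein Pecam1 at −0.56 ± 0.12 and Madcam1, the addressin for gut-homing lymphocytes, at −1.02 ± 0.19 (limma adjusted p = 0.00426). Cdh5, the cadherin of endothelial junctions, rose by 0.60 ± 0.15, with its other probe at −0.061. The counts were 1 higher and 10 lower with the GC correction and 2 higher and 5 lower under median centring, and 5 of 11 other probes had the sign of the main one.

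Lymphatic endothelial genes had 1 rise and 5 falls among 14, with Flt4, the lymphatic growth factor receptor, at −0.31 ± 0.066, Stab1 at −0.61 ± 0.13 and Itga2b at −0.90 ± 0.080, and with Clca3a1 rising by 0.48 ± 0.13 (1 higher and 4 lower with the GC correction and 1 higher and 2 lower under median centring). Itga2b is also a member of the erythroid and platelet list, so its fall cannot be assigned to lymphatic cells. Fibroblastic reticular cell and matrix genes had 9 rises and 12 falls among 40, and more rises than falls under both other scalings (11 higher and 10 lower with the GC correction and 17 higher and 5 lower under median centring). Dpt fell most, the muscle filament gene Des was at −1.02 ± 0.12, the protease Mmp2 at −0.71 ± 0.10 and Igfbp4 at −0.69 ± 0.099. Col14a1 and the microfibril protein Fbn1 rose by 0.72 ± 0.11 and 0.69 ± 0.091. Of the other probes of this list, 8 of 21 had the sign of the main one.

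Among TGF-beta signalling genes, the receptors Tgfbr1 and Bmpr1a rose by 0.67 ± 0.13 and 0.47 ± 0.091, the signal carriers Smad2 and Smad4 by 0.52 ± 0.079 and 0.33 ± 0.062, and the inhibitor Smad7 by the amount given above. The coreceptor Eng fell, and Lrg1, a ligand of Eng, was at −0.75 ± 0.093. In all, 9 rose and 8 fell of 31 measured, with 10 higher and 7 lower after the GC correction but 12 higher and 1 lower under median centring.

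**Figure D4:**
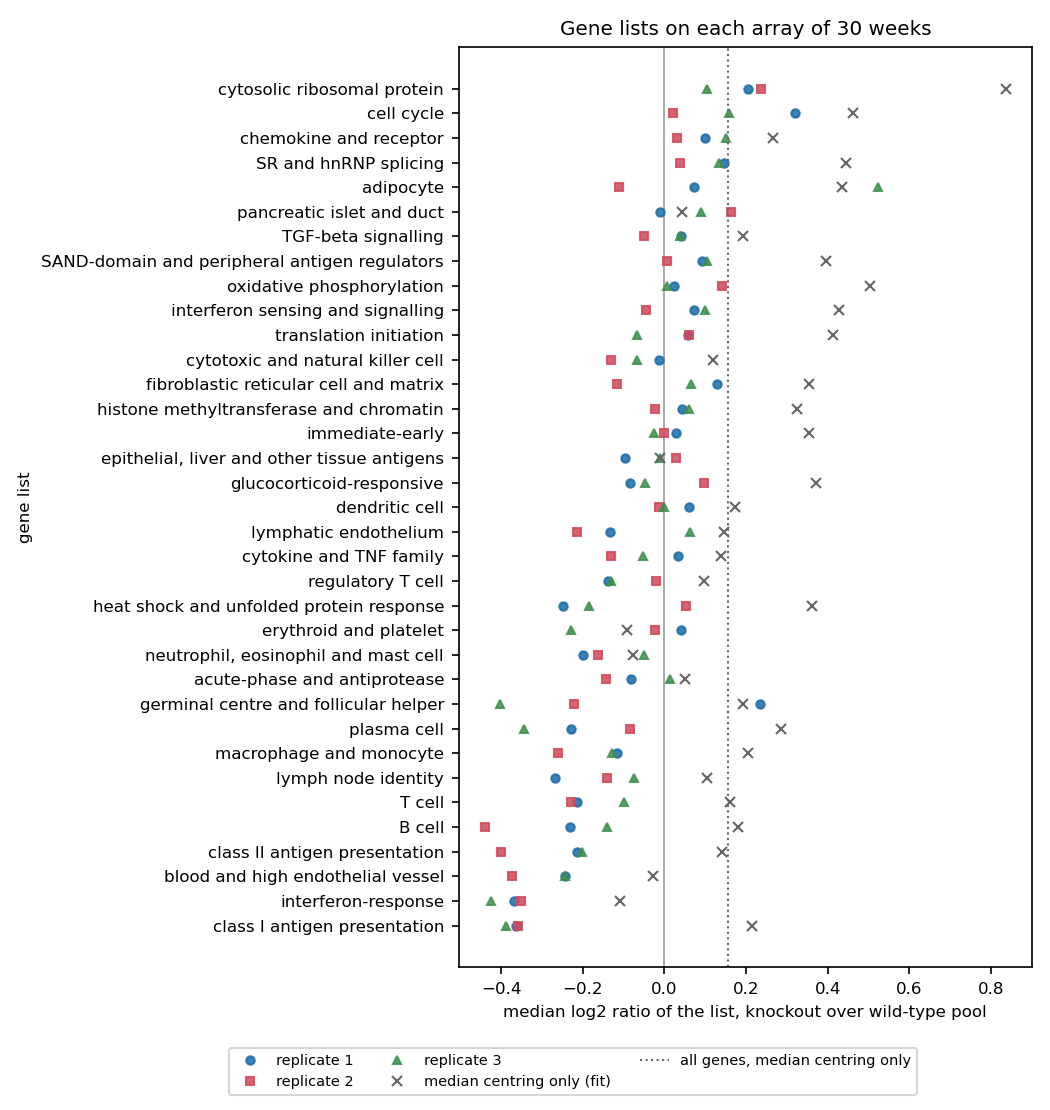
Median log2 ratio of knockout over wild-type pool at 30 weeks (x axis) for 35 gene lists (y axis), on each of the 3 arrays (coloured points) and in the fit with arrays only centred on their median (crosses, whose median over all genes is the dotted line at 0.15). The class I, interferon-response and vessel lists lie among the lowest on the 3 arrays, and the digestive-enzyme list, which is off this scale, is left out.

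Genes of the protein synthesis machinery changed in both directions within the same complexes. Among cytosolic ribosomal protein genes 21 rose and 8 fell of 47 measured, with 26 higher and 7 lower after the GC correction and 37 higher and 2 lower under median centring. Rps7 read 1.09, 0.94 and 0.93, Rps23 read 0.86, 0.79 and 0.89 and Rpl30 read 0.79, 0.61 and 0.67, while Rpsa read −1.22, −0.98 and −1.29 and Rpl4 read −1.04, −1.17 and −1.13. Rpl38 rose by 0.52 ± 0.057. All 3 arrays agreed in sign for each of these genes, although the products belong to 1 particle. Ribosomal protein genes have many processed copies in the genome, and a probe may read several of them.

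Translation initiation genes had 10 rises and 15 falls among 39. Eif4g1, the close relative of Eif4g3, read −1.003, −0.99 and −1.10, or −1.03 ± 0.12 (limma adjusted p = 0.00107), while its other probe gave 0.28. The helicase partner Eif4b was at −0.60 ± 0.092, with both of its other probes lower as well, and Eif6, a factor of the large subunit, was at −0.49 ± 0.073. Pabpc1, the poly(A)-binding protein, rose by 0.98 ± 0.11 and Eif3m by 0.71 ± 0.073. The list had 11 higher and 12 lower with the GC correction and turned under median centring to 20 higher and 2 lower.

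Splicing factors had 17 rises and 10 falls among 46, with 13 higher and 11 lower after the GC correction and 23 higher and 2 lower under median centring. Srsf5 and Hnrnpc fell most, as given above, and Srsf9 was at −0.58 ± 0.075. Luc7l2, a component of the U1 particle, rose by 0.94 ± 0.12, with all 4 of its other probes higher as well at a mean of 0.15. Srsf3 rose by 0.62 ± 0.11, Hnrnph3 by 0.56 ± 0.11 and Srrm1 by 0.37 ± 0.067.

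Oxidative phosphorylation genes had 18 rises and 10 falls among 46 (16 higher and 8 lower with the GC correction and 29 higher and 3 lower under median centring). In complex I, Ndufc1 and Ndufa1 rose by 0.89 ± 0.088 and 0.74 ± 0.076. In complex II, Sdha and Sdhc were at −0.91 ± 0.13 and −0.90 ± 0.097, and for Sdha 1 of 2 other probes shared the sign. In complexes III and IV, Uqcrfs1 and Cox7b rose by 0.94 ± 0.094 and 0.66 ± 0.070 while Cox8a was at −0.66 ± 0.089.

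Chromatin genes had 11 rises and 9 falls among 41, and the balance depended on the scaling (9 higher and 12 lower with the GC correction and 15 higher and 1 lower under median centring). Beside Setd1b, the methyltransferase Nsd2 rose by 0.93 ± 0.15, with 2 of 5 other probes of equal sign, the remodelling subunit Arid1a by 0.51 ± 0.072 and Dot1l by 0.48 ± 0.10, which with the GC correction was 0.22 (limma adjusted p = 0.0544) and did not pass. Eed, a subunit of the Polycomb repressive complex, read −0.68, −0.77 and −0.74, or −0.73 ± 0.071 (limma adjusted p = 0.000788), and the demethylase Kdm2b was at −0.52 ± 0.071.

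Among heat shock and unfolded protein genes 1 rose and 7 fell of 30 measured, a balance that turned under median centring (0 higher and 8 lower with the GC correction and 4 higher and 2 lower under median centring). The stress factors Atf4 and Ddit3 were at −0.76 ± 0.10 and −0.62 ± 0.11 and the chaperone Hspa4 at −0.43 ± 0.061, while Dnajb9 rose by 0.51 ± 0.16. Only 1 of 3 other Hspa4 probes was below 0. Immediate-early genes had 3 rises and 2 falls among 31 (7 higher and 1 lower under median centring). Those shares were below the 20.7% rising and 18.4% falling among all genes. Gadd45b, Myc and Fosb rose by 0.74 ± 0.13, 0.50 ± 0.17 and 0.20 ± 0.068, and Ppp1r15a and Ier2 were at −0.94 ± 0.14 and −0.53 ± 0.14.

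Among glucocorticoid-responsive genes, Tsc22d3 fell, Txnip, an inhibitor of thioredoxin, was at −0.57 ± 0.10 and Pdk4 read −1.04, −0.034 and −0.47, with a mean without replicate 1 of −0.25 (limma adjusted p = 0.23), whereas the kinase Sgk1 read 0.73, 0.88 and 0.74 and the cell-death gene Bcl2l11 rose by 0.31 ± 0.092. Of the 2 other Bcl2l11 probes 0 had the same sign, and their mean was −0.084. The glucocorticoid list had 2 rises and 4 falls among 22, shares near or below the 20.7% and 18.4% of all genes. That balance turned in both other fits (4 higher and 3 lower with the GC correction and 5 higher and 1 lower under median centring). Cell cycle genes had 5 rises and 3 falls among 26 (10 higher and 0 lower under median centring). Both shares were near or below the 20.7% and 18.4% of all genes. The replication helicase subunits Mcm2 and Mcm4 were at 0.43 ± 0.082 and 0.53 ± 0.085, the cyclin Ccnd1 at 0.57 ± 0.066 and Cdc20 at 0.46 ± 0.11, all rises. The topoisomerase Top2a was at −0.45 ± 0.10 and thymidine kinase Tk1 at −0.32 ± 0.086, or −0.21 (limma adjusted p = 0.0814) with the GC correction.

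Tissue antigens were measured only in part. Of 29 listed epithelial, liver, neural and endocrine antigens 17 passed the filter. Mbp, myelin basic protein, rose by 0.38 ± 0.056, and the thyroid protein Tg and the epithelial adhesion protein Epcam were at −0.35 ± 0.078 and −0.46 ± 0.11, both falls. Of 22 islet and duct genes 12 passed the filter, and 2 of them rose. The beta-cell factor Nkx6-1 read 0.20, 0.35 and 0.40, or 0.32 ± 0.069 (limma adjusted p = 0.00782), and Iapp, the islet amyloid peptide, rose by 0.22 ± 0.068. Iapp lost the call whichever array was left out, with 0.14 (limma adjusted p = 0.203) when replicate 2 was left out. It also lost the call with the GC correction, at 0.19 (limma adjusted p = 0.0594). The islet list had 3 higher and 1 lower with the GC correction and 1 higher and 0 lower under median centring. The counts over all genes were 20.7% rising and 18.4% falling. In the erythroid and platelet list 1 of 10 rose, Pf4, which read 0.81, 0.14 and 0.69. The 1 fall was Itga2b, given above with the lymphatic endothelial genes. Ptprc, the leukocyte protein CD45, rose by 0.25 ± 0.075, or 0.10 (limma adjusted p = 0.242) with the GC correction, and of the 15 node genes 2 rose and 6 fell. Under median centring the counts of the node genes turned, with 6 higher and 0 lower, but their median of 0.10 lay below the 0.15 of all genes.

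Fat cell genes had 3 rises and 1 fall among 23 (5 higher and 0 lower under median centring). Both shares were below the 20.7% rising and 18.4% falling among all genes. The array medians were 0.073, −0.11 and 0.52, highest in replicate 3. Lpl, which frees fatty acids from lipoproteins, read 0.79, 0.98 and 1.03, or 0.93 ± 0.19. The fatty acid ligase Acsl1 rose by 0.63 ± 0.15, and Pparg, the main factor of fat cells, read 0.29, 0.36 and 0.78, or 0.48 ± 0.14. Cebpa, another such factor, was at −0.44 ± 0.091. Of the 2 other Acsl1 probes 1 had the sign of the main one, and their mean was −0.042. The part of fat around the node in these results was not tested.

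Genes of pancreatic acinar cells, which make the digestive enzymes, set replicate 2 apart from replicates 1 and 3. Of the 39 measured, none passed the test, and the array medians were −3.70, 3.44 and −4.06. The amylase gene Amy1 read −4.45, 5.30 and −6.36, the trypsinogen genes Prss3 and Try5 read −4.82, 4.55 and −5.57 and −4.38, 4.28 and −4.40, and the carboxypeptidase gene Cpa1 read −3.38, 3.98 and −3.83. The elastase gene Cela3b and the chymotrypsin gene Ctrc followed the same order, with −4.09, 4.62 and −5.23 and −3.997, 4.53 and −4.44. The median SD between the 3 arrays was 4.35 for these genes and 0.098 for all genes. Without replicate 2, 35 of the 39 were lower.

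Net signals, the log2 of spot minus background brightness, show both channels of these genes. The Amy1 signal of the knockout was 15.20, 19.12 and 13.03 in replicates 1, 2 and 3, and that of the pool was 18.35, 13.50 and 18.38. Among 18 acinar genes whose pool signal was at least 14 on replicate 1, the median pool signal was 15.6, 13.9 and 15.6, and the knockout signal was 12.2, 18.5 and 11.8. For 246 other genes as bright in the pool it was 14.9, 15.1 and 14.9. The pool signal of these 18 acinar genes was thus lower on the array on which the knockout signal was high, and the cause was not tested. Over all 39 acinar genes the median pool signal differed less, at 13.45, 13.23 and 13.48. This cut at 14 was chosen after the values were seen.

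**Figure D5:**
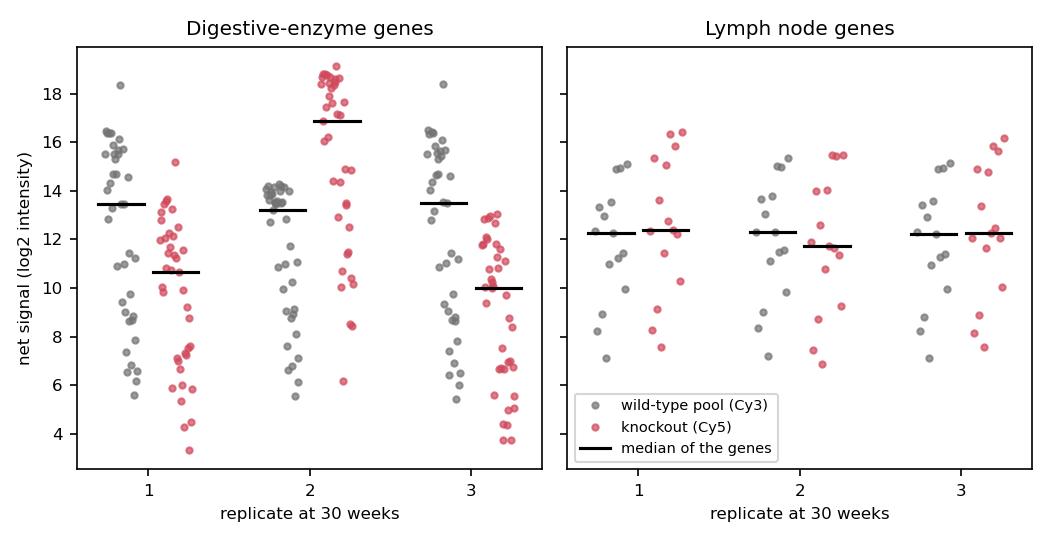
Net signal (log2 intensity, y axis) of 39 digestive-enzyme genes (left) and 15 lymph node genes (right) on the 3 arrays of 30 weeks (x axis), for the wild-type pool in Cy3 (grey) and the knockout in Cy5 (red), each point a gene and each bar the median. The knockout median of the digestive-enzyme genes is 10.7, 16.9 and 9.99, while that of the node genes is 12.4, 11.7 and 12.3.

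With these genes, 51 genes in all had a ratio over 1 in size on every array with replicate 2 opposite to the others, 32 of them from the acinar list and 15 other named genes. The second Deaf1 probe did not reach 1 on replicates 1 and 3 but had the same signs. Leaving replicate 2 out kept 5061 of the 7195 calls with their sign, leaving replicate 1 out 4079 and leaving replicate 3 out 3907.

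Single arrays decided some of the calls on named genes. Of the 204 named genes that passed, 54 did not pass when 1 of the 3 arrays was left out, 37 without replicate 1, 25 without replicate 2 and 50 without replicate 3. Adam33, Bcl2l11, Dnajb9, Fas, Flt3, Fosb, H2-K1, Iapp, Ier2, Ifit3, Klrg1, Myc, Pparg, Prdm1, Rfxap and Ski lost the call whichever array was left out. Acsl1, Aire, Basp1, Blnk, Ccl17, Ccr2, Ccr7, Cd3d, Cdc20, Cdh5, Clca3a1, Cxcl10, Cxcr5, Epcam, Flt4, Foxp3, Gmeb1, H2-Aa, H2-Ob, Il33, Il7r, Irak4, Izumo1r, Klf15, Ms4a1, Nkg7, Nkx6-1, Pdia4, Pdk4, Pecam1, Pf4, Ptprc, Stat2, Tatdn2, Tbx21, Tk1, Top2a and Xbp1 did not pass without at least 1 of them. With the GC correction 12 did not pass, namely Blnk, Dnajb9, Dot1l, H2-K1, Iapp, Ier2, Klrg1, Nkg7, Pdk4, Ptprc, Tk1 and Tpsb2.

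The ratio at 30 weeks was compared with that at 12 weeks as a difference in the same fit, in which an effect of dye that is equal on all arrays cancels. The test called 143 genes (0.777%), 59 higher at 30 weeks (0.321%) and 84 lower (0.456%). In all 143 the 3 arrays of 1 age did not overlap those of the other. That follows largely from their selection by the test and adds no support. The share without overlap over all genes was not counted. Among them 137 had been called at 30 weeks and 19 at 12 weeks, and 86 had opposite signs at the 2 ages. On the slide that holds replicate 1 of 30 weeks and the 12-week arrays, all 143 differences kept their sign, as no overlap requires. Their median size was 0.74 within that slide and 0.80 in the fit. With the slide as a random block, whose estimated correlation was negative at −0.26, the count was 2342. From the scanner's processed signals it was 2 and under median centring it was 7.

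Rab6b differed most upward from 12 weeks, going from 0.13, −0.21 and −0.21 at 12 weeks to 2.09, 1.19 and 2.70, a difference of 2.09 ± 0.36 (limma adjusted p = 0.0457). The matrix receptor chain Itga8 went from −1.35, −2.08 and −1.33 to 0.10, 0.026 and 0.086, a difference of 1.66, so that it was low at 12 weeks and near 0 at 30. Gucy1a1, a subunit of the nitric oxide receptor, and Mmp14, a membrane-bound matrix protease, were higher at 30 weeks by 1.24 and 1.23. Cpxm2 was higher by 1.10, Ankib1 by 1.04 and Slc6a6 by 1.01. Aire went from −0.39, −0.69 and −0.45 to 0.68, 0.30 and 0.16, a difference of 0.89 ± 0.15 (limma adjusted p = 0.0438).

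Among the falls, Gdpd3 went from 3.71, 3.98 and 3.49 to 1.23, 1.12 and 1.14, a difference of −2.56 ± 0.27 (limma adjusted p = 0.0345), and was above 0 at both ages. Saa3 went from −0.17, −0.050 and 0.26 to −1.24, −2.23 and −2.10, a difference of −1.87 ± 0.24 (limma adjusted p = 0.0345). The kappa segment Igkv6-14 went from 0.37, 0.36 and 0.65 to −1.16, −0.63 and −1.19, a difference of −1.45. H2-Q9, a class Ib chain, differed by −1.35, Tatdn2 by −1.25, the metalloprotease Adam33 by −1.24, D6Ertd456e by −0.99 and Hspa4 by −0.54.

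In the interferon list 3 genes were lower at 30 than at 12 weeks and none higher. Irf7 went from −0.67, −0.25 and −0.73 to −1.66, −1.52 and −1.57, a difference of −1.03 ± 0.15 (limma adjusted p = 0.0359), and Oas1a from 0.022, 0.47 and −0.18 to −0.95, −0.93 and −1.08, a difference of −1.09 ± 0.18 (limma adjusted p = 0.0442). The list's median ratio was 0.10 at 12 weeks and −0.40 at 30. Tmem80 and Eif4g3 differed by 0.073 and −0.14 between these ages and did not pass.

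Sex-linked genes were examined for this comparison. The Y-linked genes Ddx3y and Kdm5d were well above background in neither channel at 30 weeks, while Xist, the noncoding RNA of the inactive X, was so in both channels on all 3 arrays. At 12 weeks replicate 2 had ratios of −3.89 and −1.86 for Ddx3y and Kdm5d and of 5.32 for Xist. In replicates 1 and 3 of 12 weeks Ddx3y read 0.91 and 0.62. The labels give no sex, but these readings differ between the 2 ages, so sex, pool and age cannot be told apart in the comparison. Without replicate 3 of 12 weeks 0 genes passed in limma (2616 at an unadjusted p under 0.05, against 3892 with all arrays), and without replicate 1 of 12 weeks 2763 passed. The count was 210 without replicate 2 of 12 weeks (55 higher and 155 lower), 158 without replicate 2 of 30 weeks, 3 without replicate 1 of 30 weeks, 1 without replicate 3 of that age, and 1 when a 4-week array (replicate 1 or 2) was left out.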

How the data were processed

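Scanner files of 8 arrays held spot and background intensity for each dye, and a log10 ratio that was not used for the main values, per the file headers. The deposited value table held log2 ratios equal to those of the processed signals. Lists, members and tests were chosen with earlier results of these data known. Coordinates of probes are those of mm8 in the files. In limma 3.58.1 (R 4.3.3), mean signals were background-corrected (normexp, offset 50) and normalised by loess with control spots at weight 0. Probes had to be well above background in 1 channel on all arrays of an age. The brightest probe stood for a gene. A mean was fitted for each age over all 8 arrays, so the spread is shared, and p-values were adjusted by Benjamini-Hochberg over 18403 genes. Nothing says whether knockout mice came from separate litters.

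Named genes were Deaf1, Aire, Eif4g3, the 15 largest rises and falls, up to 4 members of each list in its main direction and 2 in the other by p, 6 bright acinar genes, and 6 rises and 6 falls against 12 weeks. Of the light-chain segments among them only some are described, and some other genes are not reported here. Isg15, Ifit3, Irf9, Cgas, Tgfbr1, Sdha, H2-K1, Pecam1, H2-Ob, Phf11d, Psmb8, Ddx3y, Kdm5d and Xist were named after their values were seen. Tested on simulated data for 30 weeks over 18403 genes, the fit recovered 73.1%, 89.6% and 98.5% of changes of 0.5, 1 and 2. There were 67, 67 and 66 such changes, and 10 unchanged genes were called. The simulated noise was independent between genes, and far fewer genes changed than were called in the real data. These rates therefore need not hold for the real calls.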

Additional observations from a re-analysis of the deposited data

Results flagged for a closer look

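For 18 genes the ratio differed between 30 and 12 weeks by the test of the difference itself. Higher at 30 weeks were Rab6b by 2.09, Itga8 by 1.66, Gucy1a1 by 1.24, Mmp14 by 1.23, Cpxm2 by 1.10, Ankib1 by 1.04, Slc6a6 by 1.01 and Aire by 0.89. Lower at 30 weeks were Gdpd3 at −2.56, Saa3 at −1.87, Igkv6-14 at −1.45, H2-Q9 at −1.35, Tatdn2 at −1.25, Adam33 at −1.24, Oas1a at −1.09, Irf7 at −1.03, D6Ertd456e at −0.99 and Hspa4 at −0.54. With 3 arrays at 30 weeks, single arrays were not tested as outliers.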

How the results depend on the processing

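Of 204 named genes that passed at 30 weeks, 98 passed with the same sign in each of the 20 alternatives run. The median-centred fit turned C1qa to 0.0036, Cd3d to 0.030, H2-Eb1 to 0.041 and Irf3 to 0.033, and left 9 interferon-response genes lower in place of 28. The mean over probes turned H2-K1 to −0.40, Hspa4 to 0.17, Lyz2 to −0.048 and Ski to 0.079. Leaving out single arrays gave 3946 to 7952 genes at 30 weeks, with or without digestive-enzyme genes, and 17 to 30 interferon-response genes lower. The count in 30 minus 12 weeks, 143, was 2 from processed signals, 2 from the deposited value table, 7 under median centring, 2342 with the slide as a random block and 0 to 2763 without single arrays. Same-numbered replicates did not deviate together (r of −0.028, 0.0029 and 0.019). With the replicate block limma called 6592 genes at 30 weeks and 0 in 30 minus 12 weeks (3681 at an unadjusted p under 0.05). The number of arrays limits the precision, and dim genes passed least often.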
